A study of Homo sapiens with 24 samples.

Results

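The histone genes on the arrays were followed through the response of 2 prostate cancer lines to Siomycin A. Members were all probes whose gene symbol is that of a histone: the linker histones H1, the core histones H2A, H2B, H3 and H4, and their variants. The rule found 97 probes of 82 genes among the 47318 probes of the array. Of these, 64 probes of 56 genes were detected on at least 3 of the 24 arrays (detection p under 0.01 and a signal above the array's median), out of 25161 probes of any gene that passed the same filter. The detected members were 49 probes of 45 replication-dependent genes and 15 probes of 11 variant genes. The rule itself used gene symbols and detection only, but the family was chosen with earlier results of these data known.

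The study treated the human prostate cancer cell lines PC3 and LNCaP with Siomycin A, a thiopeptide antibiotic studied as an inhibitor of the transcription factor FOXM1 and of the proteasome. Each line received Siomycin A or the solvent DMSO for 24 h or 48 h, which gives 8 groups of 3 arrays. All cells were seeded in 6-well plates the day before, and PC3 and LNCaP were kept in different media (an RPMI medium and a HAMs medium), so line and medium cannot be told apart. The labels give the Siomycin A dose as 0.5 µM in the protocol and as 5 µM in the sample titles, and the dose is therefore not settled. No label says that the 3 arrays of a group came from separate cultures, and the p-values therefore rest on a spread among arrays that could be technical.

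Histones package DNA into nucleosomes, in which DNA is wrapped around pairs of H2A, H2B, H3 and H4, and linker histone H1 binds where the DNA enters and leaves. Replication-dependent genes lie in clusters, have no introns and are transcribed mainly in S phase. Their mRNA ends in a stem-loop that is bound by the protein SLBP instead of a poly(A) tail, and it is degraded when replication stops. Many of these genes can also yield a polyadenylated transcript from a downstream signal, a form described in differentiating and non-dividing cells. Variant genes such as H2AZ1, H3-3A and H3-3B lie outside the clusters and make ordinary polyadenylated mRNA through the whole cell cycle, while H2AX can make both forms. The labelling kit (MessageAmp II, per the labels' protocols) starts from the poly(A) tail, so the values below report mainly tailed transcripts. A change in total mRNA of a gene cannot be told apart from a change in the tailed share.

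Promoters of 4 genes are shown, picked because these genes responded in different ways in the 2 lines. A link between promoter letters and response was not tested. The sequences are the 250 bases before the RefSeq transcript start in GRCh38.p14, on the gene's own strand. Capitals mark matches, on either strand, to the octamer ATTTGCAT, which the factor OCT1 is known to bind, to the CCAAT box and to the TATA box letters TATAAA. In H2BC21 and H2BC11 the octamer starts 46 and 47 bases before the transcript start. Both also hold CCAAT and TATAAA, so this pair does not differ in which of the 3 motifs are present. Each lies head to head with an H2A gene, whose start is 236 bases (H2AC20) or 248 bases (H2AC11) away. Matches far from the start of the printed gene therefore lie near the start of its partner. H2AX holds CCAAT and TATAAA but not the octamer. H4C14 holds none of the 3 motifs.
H2BC21 (chr1:149886683-149886932, minus strand): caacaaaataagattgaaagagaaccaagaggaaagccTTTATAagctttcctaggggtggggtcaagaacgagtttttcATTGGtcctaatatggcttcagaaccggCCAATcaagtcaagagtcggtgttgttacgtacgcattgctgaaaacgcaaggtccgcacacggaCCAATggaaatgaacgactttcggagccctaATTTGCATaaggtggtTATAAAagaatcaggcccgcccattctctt
H2BC11 (chr6:27132796-27133045, minus strand): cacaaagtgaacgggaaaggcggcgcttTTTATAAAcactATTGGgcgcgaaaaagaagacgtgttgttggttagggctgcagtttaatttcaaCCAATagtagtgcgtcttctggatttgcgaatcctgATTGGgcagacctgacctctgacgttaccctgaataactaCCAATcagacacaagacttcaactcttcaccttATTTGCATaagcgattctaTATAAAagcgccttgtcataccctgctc
H4C14 (chr1:149832407-149832656, plus strand): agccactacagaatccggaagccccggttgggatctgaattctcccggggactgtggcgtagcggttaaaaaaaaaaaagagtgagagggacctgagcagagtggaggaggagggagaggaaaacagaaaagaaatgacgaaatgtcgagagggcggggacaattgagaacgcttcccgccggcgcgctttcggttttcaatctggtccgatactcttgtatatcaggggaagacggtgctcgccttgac
H2AX (chr11:119095466-119095715, minus strand): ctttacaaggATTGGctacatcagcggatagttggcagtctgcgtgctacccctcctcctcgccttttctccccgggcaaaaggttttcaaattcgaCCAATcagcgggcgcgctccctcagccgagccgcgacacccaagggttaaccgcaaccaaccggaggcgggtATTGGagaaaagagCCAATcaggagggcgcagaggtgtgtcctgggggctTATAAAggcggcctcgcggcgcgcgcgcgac

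Across the detected histone genes, 54 of 56 had a promoter in the RefSeq table, in windows of 250 bases before and 50 after the start. The octamer letters occurred in 12 of 14 H2B, 8 of 12 H2A, 1 of 9 H3, 0 of 7 H4 and 0 of 2 H1 replication-dependent genes, and in 1 of 10 variant genes. Among all 35097 promoters of the table, 1.77% held them. CCAAT occurred in all 12 H2A, 14 H2B, 9 H3 and 2 H1 genes, in 8 of 10 variants and in 0 of 7 H4 genes, against 34.6% of all promoters. TATAAA occurred in 10 of 12 H2A, 10 of 14 H2B, 8 of 9 H3, 3 of 7 H4, 1 of 2 H1 and 4 of 10 variant genes, against 11.5% of all. A match is a run of letters and not a measured site. Where an H2A and an H2B gene start head to head, with 194 to 248 bases between the starts, their windows overlap. The same letters then count for both genes. Of the H2A genes with the octamer, H2AC6, H2AC7, H2AC8, H2AC11, H2AC17 and H2AC20 are partners of H2B genes that hold it.

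Levels below are log2 intensities after background correction and quantile normalization, and differences between groups are log2 fold changes ± limma's standard error, so that 1 unit is a change by a factor of 2. A difference was called when its Benjamini-Hochberg adjusted p over all 25161 probes was under 0.05. For counts at an unadjusted p no share over all probes was computed, so those counts only describe the members. Mean intensity per array ranged from 314.4 to 498.8 and the number of detected probes from 16999 to 19996. Replicate 3 of PC3 Siomycin 48 h was the dimmest array, and 23 of 24 arrays correlated best with an array of their own group, the exception being the first LNCaP DMSO 24 h array. All 7 LNCaP markers tested and all 8 PC3 markers were higher on every array of their own line. Of the 64 histone probes, 40 were detected on all 24 arrays and 12 on fewer than 12. Without the group in which they were detected most often, 6 probes would have missed the filter (H1-7, H2AC7, H2BC3, H2BC14, H3C1 and H3C14). Of these, H2BC14, H3C1 and H3C14 are among the calls counted below. Any call of theirs in a comparison that uses that group only describes the probe. The 26 genes with no detected probe, among them H1-3, H1-4 and H1-5, are not described further.

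In PC3 at 48 h, replication-dependent H2A and H2B transcripts rose under Siomycin A while most H4 transcripts that passed the test fell. Of the 64 histone probes, 26 were higher and 10 lower, against a background of 16.5% higher and 19.2% lower over all probes. Among the 49 replication-dependent probes 23 were higher and 5 lower, with a median log2 fold change of 0.41, and among the 15 variant probes 3 were higher and 5 lower, with a median of -0.02. The median over all probes was 0. The replication-dependent median depended on the processing: it was 0.16 with no background correction, median scaling or the authors' table, 0.26 with a larger offset, 0.15 with no filter and 1.15 over probes detected on all 24 arrays. These are bulk samples, in which fewer cells that make a transcript and less of it per cell cannot be told apart. By core histone, 10 of 16 H2B probes rose and 0 fell (median 0.98), 8 of 13 H2A probes rose and 0 fell (median 1.2), and 3 of 10 H3 probes rose and 0 fell (median 0.21). Of 8 H4 probes 1 rose and 5 fell, with a median of -0.37. At an unadjusted p under 0.05 in the same limma fit, 1 H2B, 0 H2A and 0 H3 probes were on the lower side.

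H2BC21 encodes an H2B whose gene, like H2BC18, lies in the chromosome 1 cluster. Its level was 9.6, 9.5 and 9.59 on the DMSO arrays and 11.78, 11.59 and 11.69 on the Siomycin arrays at 48 h. The groups were far apart, with a log2 fold change of 2.12 ± 0.08 (adjusted p 1.6e-13), the largest among the histone probes in this comparison. H2BC18 stood at 5.57, 5.32 and 5.48 in DMSO and at 7.8, 7.43 and 7.41 under Siomycin A. It rose by 2.09 ± 0.21 (adjusted p 1.5e-07). The chromosome 6 genes H2BC4, H2BC6 and H2BC8 lay just below these values. H2BC4 was at 7.85, 7.69 and 7.83 in DMSO and at 9.67, 9.6 and 9.38 under Siomycin A, a rise of 1.76 ± 0.12. H2BC6 was at 6.59, 6.78 and 6.43 against 8.42, 8.2 and 8.39, a rise of 1.73 ± 0.11. H2BC8 was at 8.18, 7.89 and 7.95 against 9.83, 9.52 and 9.7, a rise of 1.67 ± 0.18. In each of these genes every Siomycin array lay above every DMSO array, and the adjusted p was 3.8e-07 or less. Over all probes, the arrays of the groups did not overlap for 44.9%.

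H2BC11, whose promoter is printed above, was at 8.15, 7.86 and 7.95 in DMSO and at 9.67, 9.48 and 9.66 under Siomycin A, a rise of 1.62 ± 0.16 (adjusted p 1.1e-07). H2BC7 rose from 6.37, 6.45 and 6.21 to 7.45, 7.32 and 6.9, by 0.88 ± 0.16 (adjusted p 0.00014). H2BC14 was not well above background on any DMSO array at 48 h and was at least 2.07-fold higher under Siomycin A (adjusted p 9.2e-06). It passed the detection filter through the 3 Siomycin arrays of this comparison, being detected on 2 others, so this call is a description. H2BC9 rose by 0.53 (adjusted p 0.022). For H2BC5 the 2 probes disagreed: 1 rose by 1.15 and the other gave 0.10 (adjusted p 0.44). The probes of H2BC12 gave -0.23 and -0.03 and did not pass the test, nor did H2BC3, H2BC15 and H2BC17.

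Among the H2A genes, H2AC8 was at 6.52, 6.5 and 6.53 in DMSO at 48 h and at 8.16, 7.46 and 7.97 under Siomycin A. The rise of 1.35 ± 0.20 (adjusted p 1.3e-05) was well outside the spread of either group. H2AC25, the chromosome 1 gene formerly called HIST3H2A, went from 9.51, 9.52 and 9.42 to 10.76, 10.58 and 10.71, by 1.2 ± 0.10 (adjusted p 1.3e-08). H2AC18, H2AC19, H2AC20 and H2AC21, neighbours in the other chromosome 1 cluster, rose by 1.38 to 1.49. The coding parts of H2AC18, H2AC19 and H2AC20 are nearly identical, so how their signal divides among them is uncertain. H2AC6 rose by 0.42 (adjusted p 0.0017). H2AC4, H2AC7, H2AC11, H2AC13 and H2AC17 did not pass the test, with values between -0.31 and 0.19. Replication-dependent probes on chromosome 1 had a median of 1.38 (8 of 13 higher, 2 lower) and those on chromosome 6 a median of 0.27 (15 of 36 higher, 3 lower). The chromosome 1 set counts the probes of H2AC18, H2AC19 and H2AC20 separately, although they may share signal. Probes detected on few arrays, such as H2BC3 on chromosome 6 and H3C14 on chromosome 1, count as much as bright ones.

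H1-2, the linker histone with a signal at a mean of 10.13 in DMSO, reached 11.62 under Siomycin A at 48 h, a rise of 1.49 (adjusted p 1.4e-10). Of the H3 genes, H3C4 rose by 1.27 (adjusted p 1.1e-05), H3C7 by 0.41 (adjusted p 0.022) and H3C10 by 0.45 ± 0.15 (adjusted p 0.019). The 3 H3C10 values were 6.07, 6.44 and 6.02 in DMSO and 6.73, 6.49 and 6.67 under Siomycin A, groups that lie close to each other without overlapping. H4C5 rose by 1.52 (adjusted p 3.9e-08), from a mean of 6.81 to 8.34, and was the only H4 probe to do so. H4C3 gave a bright signal that fell from 14.02, 14.11 and 14.08 to 13.29, 13.19 and 13.06, by 0.89 ± 0.08 (adjusted p 3.7e-08). H4C8 fell by 0.67, H4C14 fell by 0.64, H4C15 fell by 0.48 and H4C12 fell by 0.27. H4C14 and H4C15 are near-identical copies whose probes cannot be assigned with confidence.

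The variant histones in PC3 at 48 h moved both ways. H2AJ, an H2A variant described in senescent cells, rose by 1.05 (adjusted p 3.9e-09). H3-3B and H3-3A encode the same protein, the replacement histone H3.3, and went in opposite directions against the 48 h controls. H3-3B was at 10.19, 10.18 and 10.39 in DMSO and at 10.95, 11.07 and 10.91 under Siomycin A, a rise of 0.73 ± 0.11 (adjusted p 2.6e-05). The H3-3B mean was 11.01 in the 24 h DMSO controls, 10.25 in those at 48 h and 10.98 under Siomycin A at 48 h. Its treated level was thus close to that of the 24 h controls. All 3 H3-3A probes fell, by 0.25, 0.32 and 0.36. H2AZ1, the H2A.Z histone found at promoters, fell from 13.06, 13.13 and 13.11 to 12.66, 12.62 and 12.61, by 0.47 ± 0.07 (adjusted p 4.2e-05). MACROH2A2, a histone of silenced chromatin, fell by 0.68 (adjusted p 3.5e-06). H2AX, the variant that is phosphorylated at DNA breaks, was at 7.84, 7.87 and 7.97 against 7.89, 7.98 and 8.08, a difference of 0.09 ± 0.11 (adjusted p 0.59; 95% interval -0.14 to 0.32). Its groups overlapped.

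**Figure D1:**
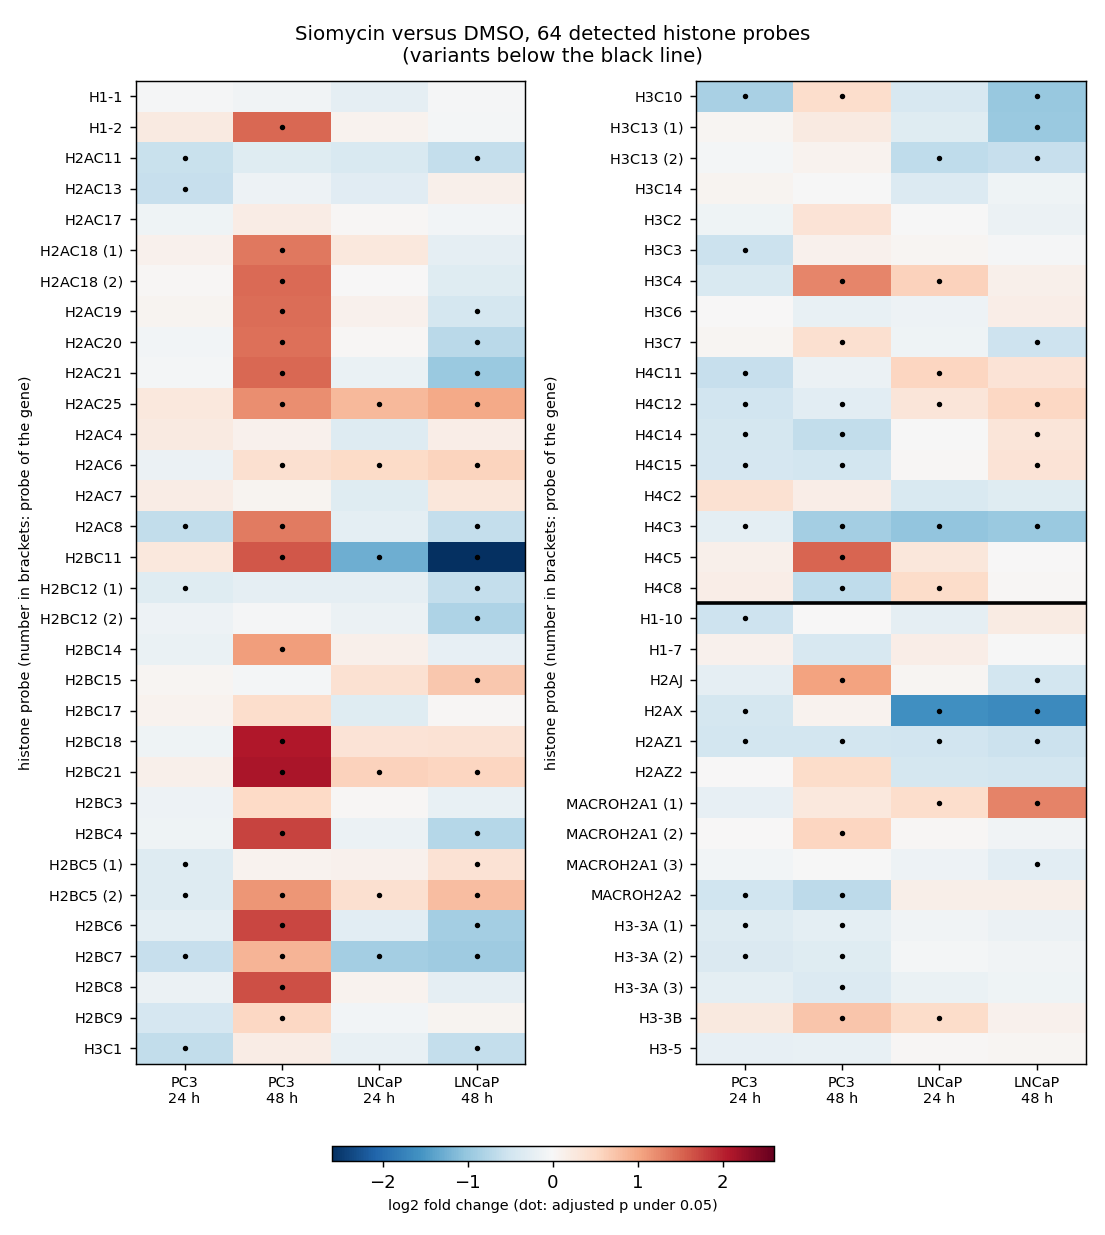
Log2 fold change of Siomycin A against DMSO for the 64 detected histone probes (rows) in each line and at each time (columns); colour gives the log2 fold change and a dot an adjusted p under 0.05. Most H2A and H2B rows are red in PC3 at 48 h, up to 2.12 for H2BC21, while H2BC11 is dark blue in LNCaP at 48 h at -2.59.

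With each array left out in turn, 33 to 39 histone probes were called, and 25 were higher and 10 lower without the dim Siomycin replicate 3. When arrays were scaled by their median instead of quantile normalized, the median of all probes moved to -0.117, 20 histone probes were higher and 8 lower, and the calls of H2BC7 (0.468), H3C10 (0.069) and H2AZ1 (-0.35) were lost. The H3C10 call was also lost without each of 4 arrays.

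At 24 h in PC3 the histone calls were all on the lower side. Of the 64 histone probes 0 were higher and 21 lower, against a background of 7.3% higher and 7.77% lower. At an unadjusted p under 0.05 in the same limma fit, 3 were higher and 27 lower. Among replication-dependent probes 15 of 49 were lower (median -0.11), and among variants 6 of 15 (median -0.24). By core histone, 5 of 8 H4, 3 of 10 H3, 4 of 16 H2B and 3 of 13 H2A probes were lower.

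The largest difference was that of H3C10, an H3.1 gene of chromosome 6, at 6.09, 6.31 and 5.99 in DMSO and at 5.26, 5.47 and 5.11 under Siomycin A. It fell by 0.85 ± 0.15 (adjusted p 0.00035), and the groups did not overlap, as for 34.4% of all probes. H3C1 was at 5.24, 5.51 and 5.39 in DMSO and was not well above background on any Siomycin array (4.84, 4.87 and 4.51). It was at least 1.42-fold lower (adjusted p 0.012), but it passed the detection filter through these 3 DMSO arrays, being detected on 2 others, so this call is a description. H2AC8 fell from 6.91, 6.6 and 6.76 to 6.26, 6.13 and 5.98, by 0.63 ± 0.20 (adjusted p 0.033), the opposite of its change at 48 h. H2AC13 was at 5.59, 5.42 and 5.65 against 5.04, 4.79 and 5.04, a difference of -0.60 in a range where it was detected on 2 DMSO arrays and 1 Siomycin array (adjusted p 0.027). H2BC7 was at 5.99, 5.93 and 6.17 against 5.63, 5.34 and 5.34 and fell by 0.59 ± 0.16 (adjusted p 0.014). All 5 of these genes were dim, and all had their Siomycin arrays below their DMSO arrays.

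Among the other members, H4C11, H4C12, H4C14 and H4C15 fell by 0.43 to 0.59, and H2AC11, H3C3, H1-10, both H2BC5 probes, MACROH2A2, 1 H2BC12 probe and 2 of 3 H3-3A probes fell by 0.31 to 0.57. H2AZ1 stood at 13.6, 13.74 and 13.67 in DMSO and at 13.25, 13.16 and 13.14 under Siomycin A, a fall of 0.48 ± 0.07 (adjusted p 0.00012). H2AX was at 8.66, 8.59 and 8.81 against 8.33, 8.28 and 8.09, a fall of 0.45 ± 0.11 (adjusted p 0.0064). H4C3 was at 14.15, 14.31 and 14.28 against 13.96, 14.01 and 14, with a small fall of 0.26 ± 0.08 (adjusted p 0.038). H2BC21, the gene with the largest rise at 48 h, gave 0.14 ± 0.08 (adjusted p 0.31) and did not pass the test. H3-3B was at 11.11, 10.89 and 11.03 against 11.18, 11.3 and 11.33, a difference of 0.26 that did not pass either (adjusted p 0.14).

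The 24 h count went to 13, with 1 higher and 12 lower, without the second PC3 Siomycin 24 h array, and to 6, all lower, with median scaling.

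The change of the Siomycin effect between 24 h and 48 h in PC3 was tested directly as a difference of the log2 fold changes, in which the 4 groups are separate. It was positive for 30 histone probes and negative for 2, against 7.44% and 10.2% of all probes. Of the 16 H2B probes 11 had a more positive effect at 48 h (median difference 1.3), and of the 13 H2A probes 8 (median 0.92). For H2BC18 the difference was 2.2 ± 0.30 and for H2BC6 1.99 ± 0.16. H3C10 turned from a fall to a rise, a difference of 1.3 ± 0.21 (adjusted p 0.00014). The negative differences were those of H4C3, -0.63 ± 0.12 (adjusted p 6e-04), and H4C8, -0.84.

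In LNCaP at 24 h, 10 histone probes were higher and 6 lower, against 7.07% and 7.02% of all probes. The medians were -0.02 for replication-dependent and -0.05 for variant probes, against 0.02 over all probes. H2AX had the largest change, from 9.05, 9.24 and 9.37 in DMSO to 7.81, 7.45 and 7.64 under Siomycin A. It fell by 1.59 ± 0.11 (adjusted p 2.1e-09). H2BC11 went from 7.95, 8.23 and 8.15 to 7.31, 6.79 and 6.45, a fall of 1.26 ± 0.16 (adjusted p 1.1e-05). H4C3 went from 14.21, 14.23 and 14.27 to 13.24, 13.1 and 13.31, a fall of 1.02 ± 0.08 (adjusted p 1.8e-08). H2BC7 was at 5.73, 5.25 and 5.62 in DMSO and was not well above background on any Siomycin array (4.49, 4.92 and 4.5), at least 1.57-fold lower (adjusted p 0.00042). In all 4 genes the Siomycin arrays lay below the DMSO arrays, as the groups were apart for 25.6% of all probes.

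H2AC25 rose at 24 h in LNCaP, from 9.02, 9.27 and 9.07 to 10.06, 9.83 and 9.97, by 0.84 ± 0.10 (adjusted p 6e-06). H2BC21 rose from 10.67, 10.76 and 10.71 to 11.4, 11.37 and 11.18, by 0.60 ± 0.08 (adjusted p 2.2e-05). H3C4 (0.60), H4C11 (0.55), H2AC6 (0.50), H4C8 (0.48), H4C12 (0.32) and 1 H2BC5 probe (0.42) were also higher. H3-3B rose from 8.05, 8.36 and 8.31 to 8.58, 8.74 and 8.84, by 0.48 ± 0.11 (adjusted p 0.0051). H2AZ1 fell from 14.16, 14.04 and 13.99 to 13.45, 13.58 and 13.66, by 0.50 ± 0.07 (adjusted p 6.5e-05). The call of a probe of MACROH2A1, described with the 48 h values was a rise of 0.46, and 1 probe of H3C13 was at least 1.46-fold lower. The split turned with the setting: 8 were higher and 9 lower without the first LNCaP Siomycin 24 h array, and 2 higher and 6 lower with median scaling, where the H3-3B call (0.47) was lost.

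At 48 h in LNCaP more histone probes were lower than higher, 21 against 10, where 14% of all probes were lower and 14.4% higher. The replication-dependent probes gave 9 higher and 17 lower (median -0.11), and the variants 1 higher and 4 lower (median -0.10). Of 10 H3 probes 0 rose and 5 fell, with the same counts at an unadjusted p under 0.05 in limma, 6 of 16 H2B and 5 of 13 H2A probes fell, and 4 H2B and 2 H2A probes rose. Of 8 H4 probes 3 rose and 1 fell.

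H2BC11 stood out with 8.2, 8.19 and 8.23 on the DMSO arrays and 5.67, 5.38 and 5.78 on the Siomycin arrays. It fell by 2.59 ± 0.16 (adjusted p 2.7e-10), more than any other histone probe in the 4 comparisons with DMSO of the same time. H2AX was next, at 8.84, 8.69 and 8.79 against 7.22, 6.98 and 7.17, a fall of 1.65 ± 0.11 (adjusted p 5.9e-10). H3C10 went from 7.84, 7.94 and 7.79 to 6.88, 6.69 and 7.06, a fall of 0.98 ± 0.15 (adjusted p 2.6e-05). H4C3 went from 14.36, 14.23 and 14.32 to 13.43, 13.32 and 13.28, a fall of 0.96 ± 0.08. These 4 genes had no overlap between the groups, nor did 42.6% of all probes. H2BC6 fell from 6.29, 5.99 and 6.23 to 5.19, 5.27 and 5.37, by 0.89 ± 0.11 (adjusted p 4.6e-06). H2BC4 fell from 7.16, 7.13 and 6.85 to 6.49, 6.26 and 6.19, by 0.74 ± 0.12 (adjusted p 7e-05). H2BC7 was at 5.25, 5.62 and 5.57 in DMSO and not well above background under Siomycin A (4.58, 4.45 and 4.65), at least 1.52-fold lower.

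Of the H2A genes, H2AC21 fell by 0.97, H2AC20 fell by 0.70, H2AC19 fell by 0.46 and H2AC11 fell by 0.62. H2AC8 fell from 6.72, 6.61 and 6.75 to 6.51, 5.64 and 6.08, by 0.62 ± 0.20 (adjusted p 0.021), with a wide spread among its Siomycin arrays, and the call was lost without each of 4 arrays. H2AC25 rose from 9.06, 9.27 and 9.26 to 10.27, 10.15 and 10.14, by 0.99 ± 0.10 (adjusted p 2.8e-07). H2BC21 rose from 10.49, 10.51 and 10.49 to 10.95, 11.11 and 11.1, by 0.56 ± 0.08 (adjusted p 2.4e-05). Both H2BC5 probes, at 0.38 and 0.80, H2AC6 at 0.58, and H4C12, H4C14 and H4C15 at 0.32 to 0.53 were higher too. H2BC15 was at least 1.47-fold higher, since no DMSO array had it well above background. H3C1 was at 5.62, 4.81 and 5.39 in DMSO and not well above background under Siomycin A (4.82, 4.61 and 4.52), at least 1.32-fold lower with overlapping groups. The probes of H3C13 were at least 1.26-fold and at least 1.83-fold lower.

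Variants at 48 h in LNCaP included H2AZ1, which fell from 14.03, 14.07 and 14.01 to 13.46, 13.48 and 13.5, by 0.56 ± 0.07 (adjusted p 7.5e-06). H2AJ fell by 0.48 (adjusted p 0.00012). H3-3B was at 7.91, 8.13 and 7.81 against 8.18, 7.91 and 8.12, overlapping groups with a difference of 0.12 ± 0.11 (adjusted p 0.49). MACROH2A1, which encodes macroH2A1, was read by 3 probes that disagreed. Its probe with the largest change rose from 6.63, 6.59 and 6.48 to 7.95, 7.83 and 7.8, by 1.29 ± 0.11 (adjusted p 2.8e-08), and by 0.46 ± 0.11 at 24 h (6.89, 6.69 and 6.52 to 6.97, 7.32 and 7.19). The other probes gave -0.09 and -0.28 at 48 h, of which the second passed the test (adjusted p 0.0084). The gene is known to be spliced in 2 forms, and which of its transcripts each probe reads was not analysed here.

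**Figure D2:**
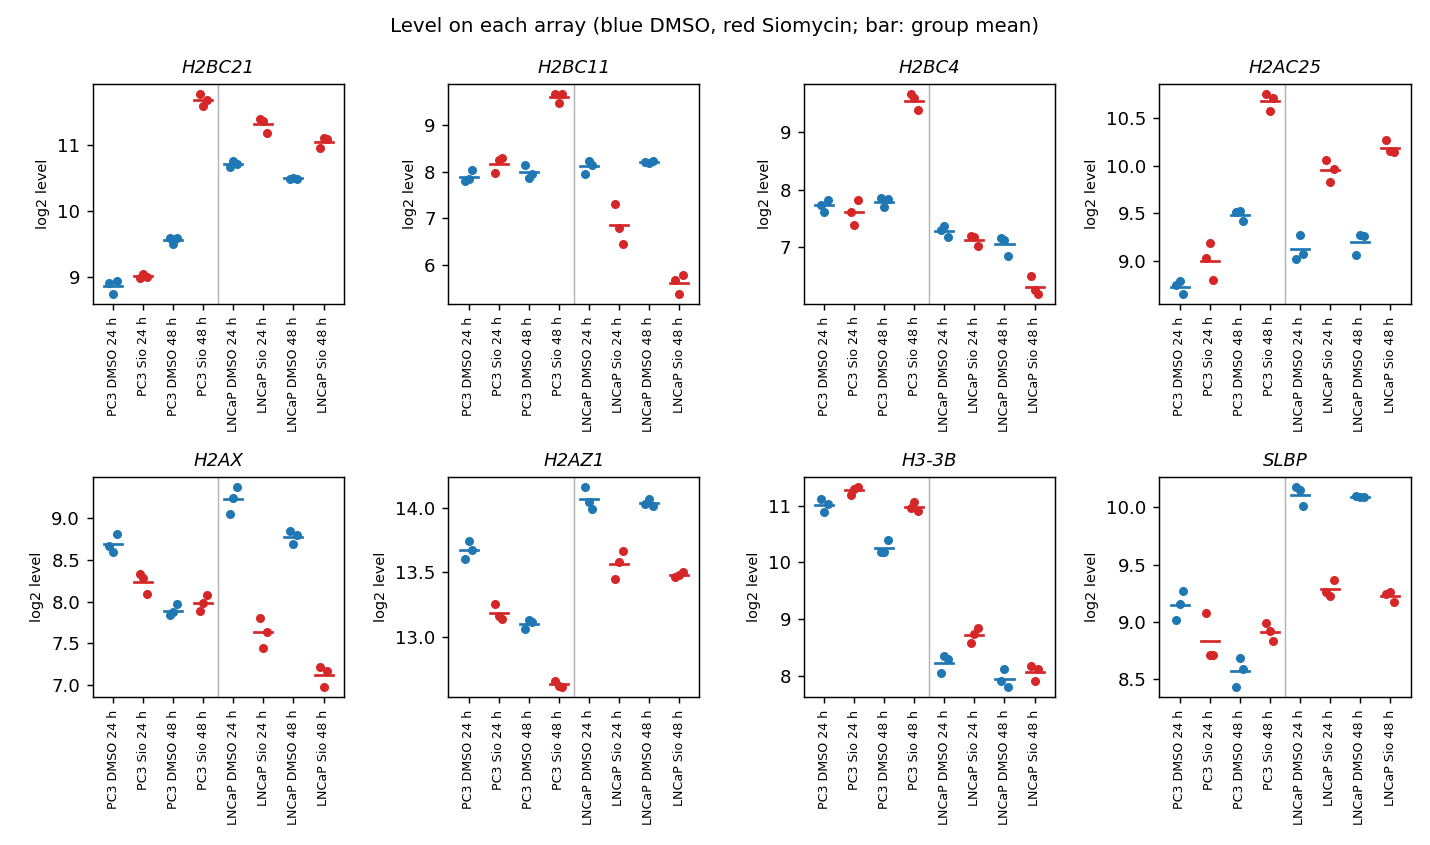
Log2 level on each array (points; blue DMSO, red Siomycin A) with group means (bars) for 7 histone genes and SLBP in the 8 groups. H2BC11 and H2BC4 are highest in PC3 under Siomycin A at 48 h (means 9.6 and 9.55) and lowest in LNCaP under Siomycin A at 48 h (means 5.61 and 6.31).

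The difference between the lines was itself tested at 48 h. The Siomycin effect was lower in LNCaP than in PC3 for 30 histone probes and higher for 7, against 15.2% and 17.4% of all probes. For H2BC11 the effects differed by -4.21 ± 0.23 (adjusted p 5.2e-11). H2BC6 differed by -2.62 ± 0.16, H2BC4 by -2.5 ± 0.17, H2AC21 by -2.46 and H2AC20 by -2.13. For H2AX the difference was -1.74 ± 0.15. Of 8 H4 probes 4 had a more positive effect in LNCaP, with differences of 0.96 for H4C14, 0.84 for H4C15, 0.80 for H4C12 and 0.71 for H4C8, and 1 a more negative one, H4C5 at -1.52. The other 3, H4C2, H4C3 and H4C11, did not pass the test. H2AC25 rose in both lines by amounts whose difference, -0.21 ± 0.15 (adjusted p 0.31; 95% interval -0.51 to 0.10), did not pass the test. H2AZ1 fell in both, with a difference of -0.09 ± 0.11 (adjusted p 0.57; 95% interval -0.31 to 0.13).

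Counted gene by gene, 11 of the 64 histone probes were called higher in PC3 and lower in LNCaP at 48 h, against 2.47% of all probes. They were H2AC8, H2AC19, H2AC20, H2AC21, H2AJ, H2BC4, H2BC6, H2BC7, H2BC11, H3C7 and H3C10. Called higher in both lines were 4 probes, those of H2AC6, H2AC25, H2BC21 and H2BC5. Called lower in PC3 and higher in LNCaP were 3, all of them H4 genes (H4C12, H4C14 and H4C15), and called lower in both were H2AZ1 and H4C3. Over the 4 comparisons, 51 of 64 probes were called at least once and 5 every time, namely H2AZ1, H2BC7, H4C3, H4C12 and 1 probe of H2BC5. Apart from the count of 11, no share over all probes was computed for the counts in this paragraph, so they only describe the members.

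**Figure D3:**
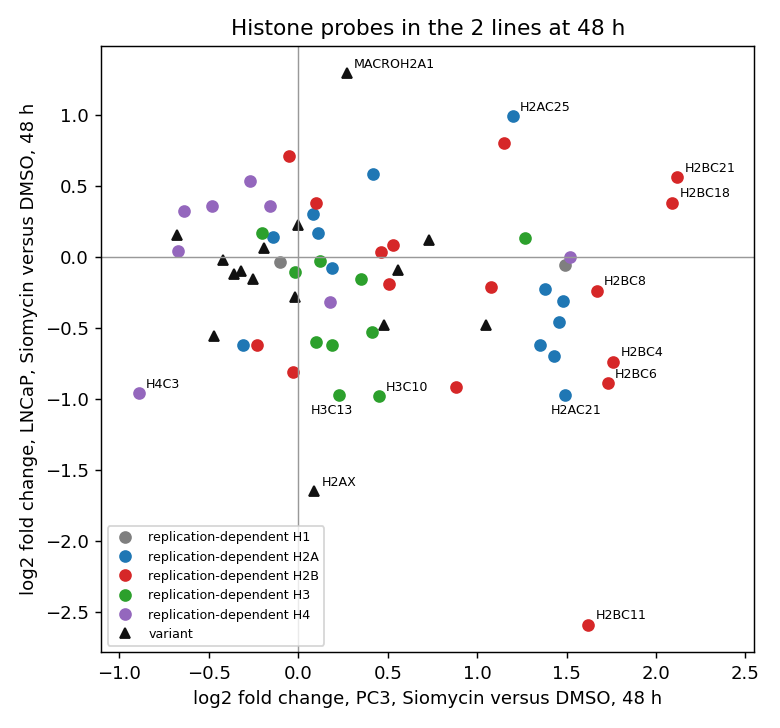
Log2 fold change at 48 h in PC3 (x axis) against LNCaP (y axis) for the 64 histone probes, coloured by core histone, with variants as triangles. Most H2B and H2A probes lie to the right of 0, and they spread from 0.99 (H2AC25) down to -2.59 (H2BC11) in LNCaP, while most H4 probes lie to the left.

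At 24 h the effects of the lines differed for 13 histone probes, 10 more positive and 3 more negative in LNCaP, against 4.17% and 4.41% of all probes. The negative ones were H2BC11 (-1.54 ± 0.23), H2AX (-1.13 ± 0.15) and H4C3 (-0.76 ± 0.12). Among the positive ones were H4C11 (1.14), H3C4 (1), H4C12 (0.82), H2AC25 (0.56 ± 0.15) and H2BC21 (0.46 ± 0.12). With median scaling 5 were past the threshold, 2 positive and 3 negative. Within LNCaP, 2 probes had a more positive and 9 a more negative effect at 48 h than at 24 h, against 2.6% in each direction. H2BC11 gave -1.34 ± 0.23, H2BC6 -0.62 ± 0.16 and H2BC4 -0.59 ± 0.17, and the MACROH2A1 probe gave 0.83 ± 0.16. That count fell to 7 without any of 5 LNCaP arrays (replicate 2 of DMSO 24 h, replicate 1 or 3 of DMSO 48 h, replicate 2 or 3 of Siomycin 48 h) and to 1 with median scaling.

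The controls themselves moved in PC3. From 24 h to 48 h in DMSO, 18 histone probes rose and 10 fell, against 9.85% and 10.2% of all probes, and 8 of the 10 falls were variants. Replication-dependent H4 genes rose most, 5 of 8 with a median of 0.56: H4C8 by 1.21, H4C14 by 1.07, H4C15 by 0.93, H4C5 by 0.71 and H4C12 by 0.40. H2AC6 rose by 0.77, H2AC25 by 0.76 and H2BC21 by 0.69 in the same controls. H2AX fell by 0.79, H3-3B fell by 0.76, H2AZ2 fell by 0.69 and H2AZ1 fell by 0.57. Median scaling gave 7 rises and 10 falls. In LNCaP the DMSO controls gave 0 rises and 1 fall, that of a H2BC5 probe by 0.34 (adjusted p 0.043), against 0.0994% and 0.103% of all probes. At an unadjusted p under 0.05 in limma, 1 was higher and 10 lower, a threshold at which the share of all probes was not computed. The single call was lost with median scaling.

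Against the 24 h DMSO controls, PC3 cells after 48 h of Siomycin A had 28 histone probes higher and 11 lower, where 17.8% of all probes were higher and 20.7% lower. Median scaling gave 20 and 19. H2BC21 was higher by 2.82 and H2BC18 by 2.30. Measured this way 4 H4 probes were higher, H4C5 (2.24), H4C8 (0.54), H4C15 (0.45) and H4C14 (0.42), although H4C8, H4C14 and H4C15 had been lower against the 48 h controls. H4C3 was lower on both references, at -0.89 against 48 h and -1.06 against 24 h. H2AZ1 (-1.04) and H2AX (-0.70) were lower than in the 24 h controls. Both comparisons use the same Siomycin arrays. In LNCaP the same comparison gave 10 higher and 25 lower, against 14.4% and 13.6% of all probes, and 5 and 22 with median scaling. The 25 include H3C14, which passed the detection filter with the help of these 24 h controls, so that call is a description.

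Untreated, the lines already differed in histone levels. At 24 h in DMSO, 29 histone probes were higher and 17 lower in LNCaP than in PC3, against 25.5% and 24.6% of all probes, and at 48 h 21 were higher and 22 lower, against 26.7% and 25%. H1-2 was higher in LNCaP by 2.24 at 24 h and H3C10 by 1.84 ± 0.15. H3-3B was lower in LNCaP by the widest margin, -2.77, followed by the MACROH2A1 probe at -2.17. H2BC9 (-1.71) and H2BC8 (-1.37) were lower in LNCaP as well. Replication-dependent probes on chromosome 1 were higher in LNCaP in 10 of 13 cases at 24 h with 0 lower. At 48 h that was 3 higher and 3 lower. The 10 include H3C14, at least 1.26-fold higher in LNCaP (adjusted p 0.0015 in limma). It was detected on 4 arrays, 2 of them LNCaP DMSO 24 h arrays, so this call is a description.

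Several H2A and H2B genes are arranged head to head, so that a pair shares the stretch between its starts. RefSeq gave 11 such pairs among the histone genes of the array, with 194 to 248 bases between the starts, and both genes were detected in 6. In PC3 at 48 h, H2BC21 and its partner H2AC20 rose by 2.12 and 1.43, H2BC8 and H2AC8 by 1.67 and 1.35, and H2BC4 and H2AC6 by 1.76 and 0.42. H2BC11 rose by 1.62 while its partner H2AC11 gave -0.31 and did not pass the test (adjusted p 0.2). H2BC7 rose by 0.88 and H2AC7 gave 0.08, and neither gene of the pair H2AC17 and H2BC17 was called. In LNCaP at 48 h both partners were called in opposite directions in 2 pairs. H2BC21 rose by 0.56 and H2AC20 was at -0.70, and H2BC4 was at -0.74 and H2AC6 rose by 0.58. In the pair H2BC11 and H2AC11 both partners were called lower, at -2.59 and -0.62.

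The replication-dependent probes were also counted by the octamer letters. In PC3 at 48 h, of 22 probes of genes with the octamer 14 were higher and 0 lower (median 0.98), and of 26 probes of genes without it 9 were higher and 4 lower (median 0.15). In LNCaP at 48 h the counts were 2 higher and 10 lower with the octamer and 7 higher and 6 lower without. Since the letters are mostly those of H2A and H2B genes, these pooled counts mix the octamer with the core histone class. They also count the shared stretch of a head-to-head pair for both of its genes. Within H2A in PC3 at 48 h, H2AC18, H2AC19 and H2AC25 lack the octamer and rose, while H2AC13 lacks it and was not called. Of the H2A genes with it, H2AC6, H2AC8, H2AC20 and H2AC21 rose. H2AC4, H2AC7, H2AC11 and H2AC17, which also have it, were not called. Whether the octamer has a part in the response was not tested.

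Genes that serve histones were read beside them, from lists drawn up with earlier results of these data known. SLBP, which binds the stem-loop of histone mRNA, was at 8.43, 8.68 and 8.59 in PC3 DMSO at 48 h and at 8.99, 8.92 and 8.83 under Siomycin A. It rose by 0.35 ± 0.10 (adjusted p 0.01), but with median scaling the sign turned, to -0.041. Its mean was 9.15 in the PC3 24 h DMSO controls, against 8.91 under Siomycin A at 48 h. At 24 h in PC3 it fell by 0.32 ± 0.10 (adjusted p 0.037), from 9.02, 9.16 and 9.27 to 9.08, 8.71 and 8.71, with overlapping groups. In LNCaP it fell from 10.18, 10.15 and 10.01 to 9.26, 9.23 and 9.37 at 24 h, by 0.83 ± 0.10 (adjusted p 5.7e-06). At 48 h it fell from 10.1, 10.09 and 10.09 to 9.24, 9.26 and 9.17, by 0.87 ± 0.10 (adjusted p 1.3e-06). NPAT, the cyclin E-CDK2 substrate that activates histone genes, did not pass the test in the 4 comparisons, with values between -0.42 and 0.26. CDK2 itself fell by 0.55 at 24 h and rose by 0.59 at 48 h in PC3, while in LNCaP it fell by 1.55 and fell by 1.35. Of 6 tested genes of histone transcription, 0 were higher and 1 lower in PC3 at 24 h. At 48 h in PC3 3 were higher (CDK2, CCNE1 and YY1) and 0 lower, against 16.5% and 19.2% of all probes. From PC3 DMSO at 24 h to Siomycin A at 48 h, the mean went from 9.96 to 8.85 for CDK2 and from 7.09 to 6.63 for CCNE1. For YY1 it went from 11.12 to 11.52. In LNCaP 0 were higher and 2 lower (CDK2 and CCNE1) at each time. The other shares over all probes stand in the next paragraph.

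Of the 12 genes of histone 3′ end processing, 1 was higher and 2 lower in PC3 at 24 h, 2 and 3 in PC3 at 48 h, 0 and 2 in LNCaP at 24 h, and 0 and 6 in LNCaP at 48 h. Over all probes the shares higher and lower were 7.3% and 7.77%, 16.5% and 19.2%, 7.07% and 7.02%, and 14.4% and 14% in the same order, so the PC3 counts of this list at 48 h are near the background. In PC3 at 48 h LSM11, a subunit of the U7 snRNP, rose by 0.85 and CPSF3, the endonuclease that cuts the pre-mRNA, fell by 0.51. In LNCaP at 48 h SRRT fell by 0.83, NCBP1 fell by 0.48 and LSM10 fell by 0.46. Of the 9 decay genes, MTPAP, which has been described as a histone mRNA uridylyltransferase, rose by 0.41 at 24 h and by 0.65 at 48 h in PC3, and fell by 0.47 at 48 h in LNCaP. The uridylyltransferases TUT7 and TUT4 fell by 0.76 and fell by 0.55 in PC3 at 48 h, and ERI1, the exonuclease that trims histone mRNA ends, fell by 0.83 and fell by 0.75 in LNCaP at 24 h and 48 h. TUT7 had a mean of 4.71 under Siomycin A in PC3 at 48 h, near background, so the size of its fall is a fitted value. XRN1 rose by 0.77 in LNCaP at 48 h. The decay list as a whole had 1 higher and 0 lower, 2 and 3, 0 and 3, and 1 and 3 in the 4 comparisons, in the same order, and its PC3 counts at 48 h too are near the shares of all probes given above.

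The chaperones that deposit newly made histones at forks (14 genes) had 1 higher and 3 lower in PC3 at 24 h, 2 and 4 in PC3 at 48 h, and 0 and 9 in LNCaP at both times (medians -0.54 and -0.55). The PC3 counts at 48 h are near the 16.5% higher and 19.2% lower of all probes, while in LNCaP 7.02% and 14% of all probes were lower. In LNCaP at 48 h ASF1B fell by 2.11, MCM2 fell by 2.03, CHAF1A fell by 1.62 and NASP, which holds H3 and H4, fell by 1.44. In PC3 at 48 h NASP fell by 1.09 and SUPT16H fell by 0.67, while RBBP4 rose by 0.80 and MCM2 rose by 0.58. From PC3 DMSO at 24 h to Siomycin A at 48 h, the mean of MCM2 went from 8.17 to 7.05 and that of RBBP4 from 8.44 to 8.78. Under Siomycin A at 48 h CHAF1A in LNCaP (mean 4.67) and NASP in PC3 (mean 4.85) were near background. The sizes of these 2 falls are therefore fitted values. Of 13 tested chaperones of variants, 1 was higher and 2 lower in PC3 at 24 h, and 2 and 6 at 48 h. In LNCaP 0 were higher and 3 lower at each time. Over all probes 7.3% were higher and 7.77% lower in PC3 at 24 h. HJURP, which loads the centromeric histone CENP-A, fell by 1.93 and fell by 1.35 in LNCaP. EP400 and YEATS4, parts of the complex that exchanges H2A.Z, fell by 0.92 and fell by 0.79 in PC3 at 48 h.

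S phase genes are given beside the histones because replication-dependent histone mRNA is made in S phase. Of 19 tested, 0 were higher and 13 lower in PC3 at 24 h (median -0.52), against 7.3% and 7.77% of all probes. In PC3 at 48 h 6 were higher and 3 lower (median 0.02), against 16.5% and 19.2% of all probes. Set against the 24 h DMSO controls, PC3 after 48 h of Siomycin A had 0 higher and 17 lower (median -1.52). The shares of all probes there were 17.8% and 20.7%. In LNCaP all 19 were lower at 24 h (median -1.64) and at 48 h (median -1.81), with FEN1, CDT1 and RRM2 at -2.42, -2.20 and -2.10 at 48 h. Over all probes 7.02% and 14% were lower in LNCaP at these times. In the PC3 DMSO controls 18 of 19 S phase genes fell from 24 h to 48 h (median -1.46), while 16 replication-dependent histone probes rose and 2 fell. Over all probes 9.85% rose and 10.2% fell there. In LNCaP under Siomycin A the replication-dependent histone medians were -0.02 and -0.11 at 24 h and 48 h. Whether the share of cells in S phase has a part in any histone difference was not tested.

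**Figure D4:**
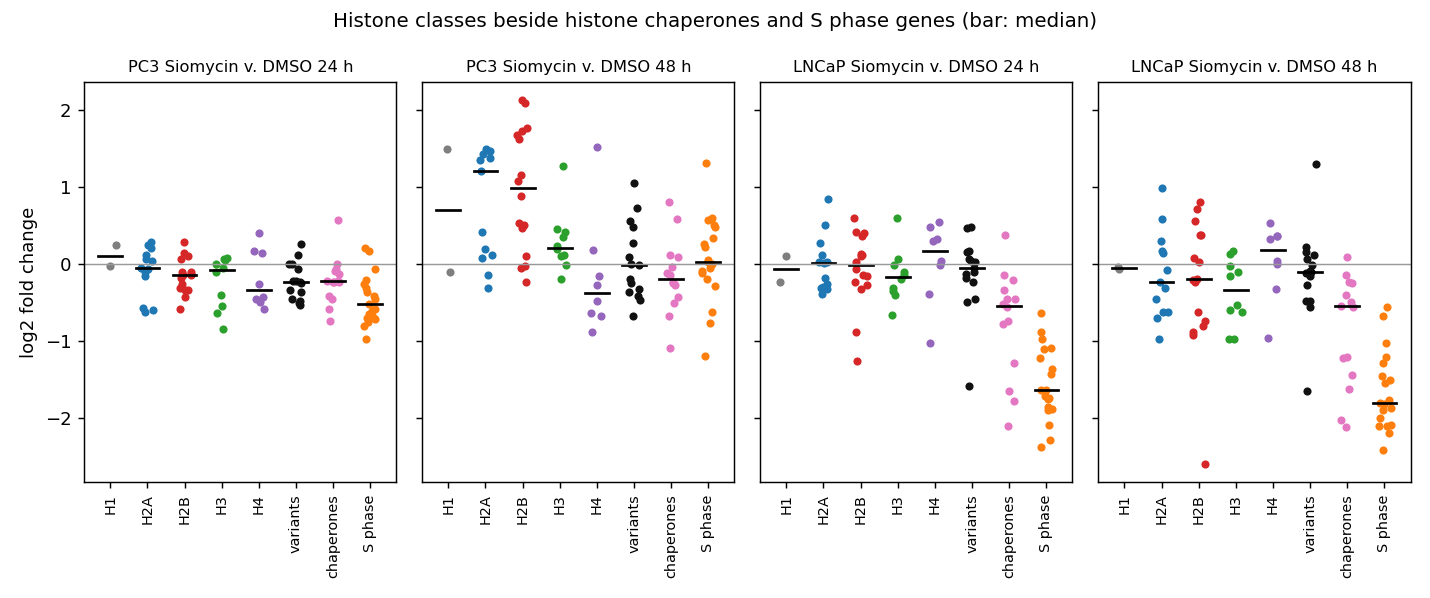
Log2 fold change of Siomycin A against DMSO (y axis) for replication-dependent histone probes by core histone, variant probes, replication-coupled chaperones and S phase genes in the 4 comparisons; points are probes and bars medians. H2A and H2B stand at medians of 1.2 and 0.98 in PC3 at 48 h, and S phase genes at -1.64 and -1.81 in LNCaP.

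Restricting the replication-dependent probes to the 27 detected on all 24 arrays, 16 were higher and 5 lower in PC3 at 48 h (median 1.15), and 8 higher and 11 lower in LNCaP at 48 h (median -0.23). Shares over all probes detected on all 24 arrays are not given here, so these counts only describe the members. The 22 others passed the detection filter only on some arrays. Among all histone probes 13, such as H1-1, H2AC4, H2AC17, H2BC3, H3C2 and H4C2, were called in none of the 4 comparisons. The like share over all probes was not computed. Genes with several probes mostly gave like values, H2AC18 at 1.38 and 1.48 in PC3 at 48 h and H2BC12 at -0.62 and -0.81 in LNCaP at 48 h, with H2BC5 and MACROH2A1 as the exceptions described above.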

How the data were processed

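Expression was measured on 24 Illumina bead arrays. The authors deposited non-normalized probe intensities with a detection p-value for each probe and array, and a table of log2 values; per the submitters' processing notes lumi was used. The deposited log2 values equalled log2 quantile-normalized intensities within 5.12e-09, with a median of 6.91 on every array. The detection p-values were small on both sides of background, so a probe also had to exceed the array's median to count as detected. Here intensities were background-corrected by normexp (centre from probes with detection p over 0.9, offset 16), logged and quantile-normalized.

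A model of 8 group means over 24 arrays was fitted with limma 3.58.1 in R 4.3.3 (16 residual degrees of freedom, two-sided tests, Benjamini-Hochberg over 25161 probes), for 14 comparisons, some of which share arrays. Scripts were tested on simulated data. Symbols came from a probe list naming 30111 probes with 1 symbol and 8 with several, while 17199 were unnamed. Levels are never compared between probes. "At least" folds set the brighter group's mean against the dimmer group's, each dim array taken at the higher of its own value and the lowest detected signal. The members and gene lists were chosen with earlier results of these data known. Values on every array are given for the 5 called histone probes with the largest change in each Siomycin comparison and for H2AZ1, H2AX, H3-3B and SLBP. Up to 4 called genes per list and comparison are named by size. Equal replicate numbers did not pair the arrays: over 12 pairs the correlation of deviations lay between -0.13 and 0.023. Alternatives changed background, scaling, filter, samples and weights.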

Additional observations from a re-analysis of the deposited data

Results flagged for a closer look

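The difference of the Siomycin A effect between lines or times passed limma's test for the following genes, given as differences of log2 fold changes with no explanation. For LNCaP minus PC3 at 48 h the values were -4.21 for H2BC11, -2.62 for H2BC6, -2.5 for H2BC4, -1.97 for H2AC8, -1.92 for H2BC8, -1.8 for H2BC7, -1.74 for H2AX, -1.71 for H2BC18, -1.57 for H2BC21, -1.43 for H3C10, -1.21 for SLBP, -0.81 for H3C1 and -0.61 for H3-3B. The MACROH2A1 probe gave 1.02, the only positive value among these genes. For LNCaP minus PC3 at 24 h the values were -1.54 for H2BC11, -1.13 for H2AX, -0.76 for H4C3, -0.51 for SLBP, 0.46 for H2BC21, 0.56 for H2AC25 and 0.68 for MACROH2A1.

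For 48 h minus 24 h in PC3 the values were 2.2 for H2BC18, 1.99 for H2BC6, 1.98 for H2BC21 and H2AC8, 1.88 for H2BC4, 1.83 for H2BC8, 1.47 for H2BC7, 1.34 for H2BC11, 1.3 for H3C10, 0.92 for H2AC25, 0.83 for H3C1, 0.67 for SLBP, 0.54 for H2AX, 0.49 for MACROH2A1 and 0.47 for H3-3B, and -0.63 for H4C3. In LNCaP the same difference was -1.34 for H2BC11 (adjusted p 0.0015 in limma), -0.62 for H2BC6, -0.59 for H2BC4 and 0.83 for MACROH2A1. H3C1 and H2BC7 were not well above background in some of these groups, so their differences are fitted values set by the background correction, not measured sizes, and only the bounds in the report apply to them. The PC3 controls themselves changed between the times, which enters each difference with 48 h minus 24 h in that line.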

How the results depend on the processing

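Of 5100 values of named probes under the alternatives, 4932 kept their side of the threshold, 141 lost the call, 26 gained one and 1 reversed. The reversed value was SLBP in PC3 at 48 h, -0.041 with median centring. A change of sign counted as a reversal only if the main or the alternative value was called, so uncalled values that changed sign are among the 4932. Median centring, which scales each array by its median, gave 6 histone calls for PC3 at 24 h, 8 for LNCaP at 24 h, 5 for LNCaP minus PC3 at 24 h, 1 for 48 h minus 24 h in LNCaP, 17 for the PC3 controls and 0 for the LNCaP controls; the cause was not tested. With arrays of the compared line alone, 48 h minus 24 h in LNCaP gave 4 and the LNCaP controls 0, from fewer arrays. The LNCaP controls gave 3 with no background correction, offset 50, the authors' table or array weights, and 2 with detection on all 24 arrays. The median of replication-dependent probes in PC3 at 48 h was 0.16 with no background correction, median centring or the authors' table, 0.26 with offset 50, 0.15 with no filter and 1.15 with detection on all 24 arrays, and that of variants was -0.21 with median centring. Leaving out 1 array gave 13 to 23 calls for PC3 at 24 h, 33 to 39 for PC3 at 48 h, 13 to 17 and 28 to 32 for LNCaP at 24 h and 48 h, 7 to 12 for 48 h minus 24 h in LNCaP and 0 to 1 for the LNCaP controls. Without the third PC3 Siomycin 48 h and first LNCaP Siomycin 24 h arrays together, chosen after seeing the data, PC3 at 48 h gave 37 and LNCaP at 24 h 17, 7 higher and 10 lower. With the replicate block, the counts were 21, 36, 15 and 31 for PC3 at 24 h and 48 h and LNCaP at 24 h and 48 h. The chip as a block was not run, since the sources used here give no chip. Signal near background limits H3C1, H2BC7, H2BC14, H2BC15 and H3C13 to bounds.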
